A study of Mus musculus with 32 samples.

Results

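The C-type lectin and NK receptor genes described here are the genes annotated as protein coding whose symbol starts with Clec and a digit, or with Klra, Klrb, Klrc, Klrd, Klre, Klrg, Klri or Klrk. There were 56 of them among 49671 genes in the tables. A further 7 symbols of the same form carried a pseudogene type and were left out, among them Clec7a, which encodes the beta-glucan receptor Dectin-1. RNA was measured in the neuroepithelium of the vomeronasal organ (VNO), the pheromone-sensing organ of the nose, in 32 mice at 42 days of age. The mice belonged to the inbred strains C57/BL6 (B6), 129S6/SVEV in the labels and 129Sv/J in the study's text (129), SJL/J (SJL) and SWR/J (SWR). Each strain gave 4 females and 4 males, each library came from 1 mouse, and no mouse was treated or carried an introduced allele. The labels name no other difference between the groups than strain and sex.

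C-type lectin-like receptors are membrane proteins with a shared fold. Those of the Klr families sit mainly on natural killer (NK) cells and some T cells, where inhibitory and activating receptors read MHC class I or related ligands on other cells. Several Clec2 proteins are ligands of Klrb1 receptors, and the Clec4 proteins are found mainly on macrophages, dendritic cells and neutrophils, where they bind sugars of microbes and of host glycoproteins. In the mouse most of these genes lie in the NK gene complex and in a second cluster of Clec4 genes on chromosome 6, and the Klra (Ly49) family is known to differ in gene number between inbred strains.

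Of the 56 members 48 lay on chromosome 6. Expression was low: every member had at least 1 read in some library, 15 had a read in all 32 libraries, and 6 never passed 3 reads in any library. The 21 members that passed the filter on low counts are the ones tested below, and a member that is high in a single strain could pass through that strain alone. In TPM, a level corrected for gene length and depth, Clec2d was the highest with a mean of 52.9 over the 32 libraries, followed by Clec11a with 18 and Clec16a with 12.9. The next were Clec4a3 with 6.23 and Clec2g with 5.67.

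The libraries held between 5106398 and 18640871 reads on genes, with a median of 11461344. Reads on 260 genes of families used by other tissues (such as keratin-associated, Psg and Rhox genes) served as a measure of background. They made up 0.327 to 1.74 RPM (reads scaled to the total on genes) in 129, 1.09 to 32.2 in B6, 2.57 to 11.4 in SJL and 0.521 to 15.4 in SWR. The summed level of 12 macrophage markers also differed, from 792 to 1188 normalised counts in 129, 1221 to 1674 in SWR, 1652 to 2264 in SJL and 1927 to 2680 in B6, so that every 129 library lay below every library of the other strains. The markers of vomeronasal neurons were present in all libraries. Their summed levels ran from 23333 to 29212 in B6, 27493 to 33826 in SJL, 28111 to 38209 in SWR and 29610 to 35526 in 129. Every B6 library thus lay below every 129 library. The libraries B6 female 1 and 129 male 1 stood apart by the lactoferrin gene Ltf, which reached 53986 and 39159 normalised counts there, and it supplied nearly all of a summed neutrophil marker level of 54284 and 39248. In bulk tissue, fewer cells of a type and less RNA per cell cannot be told apart.

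**Figure D1:**
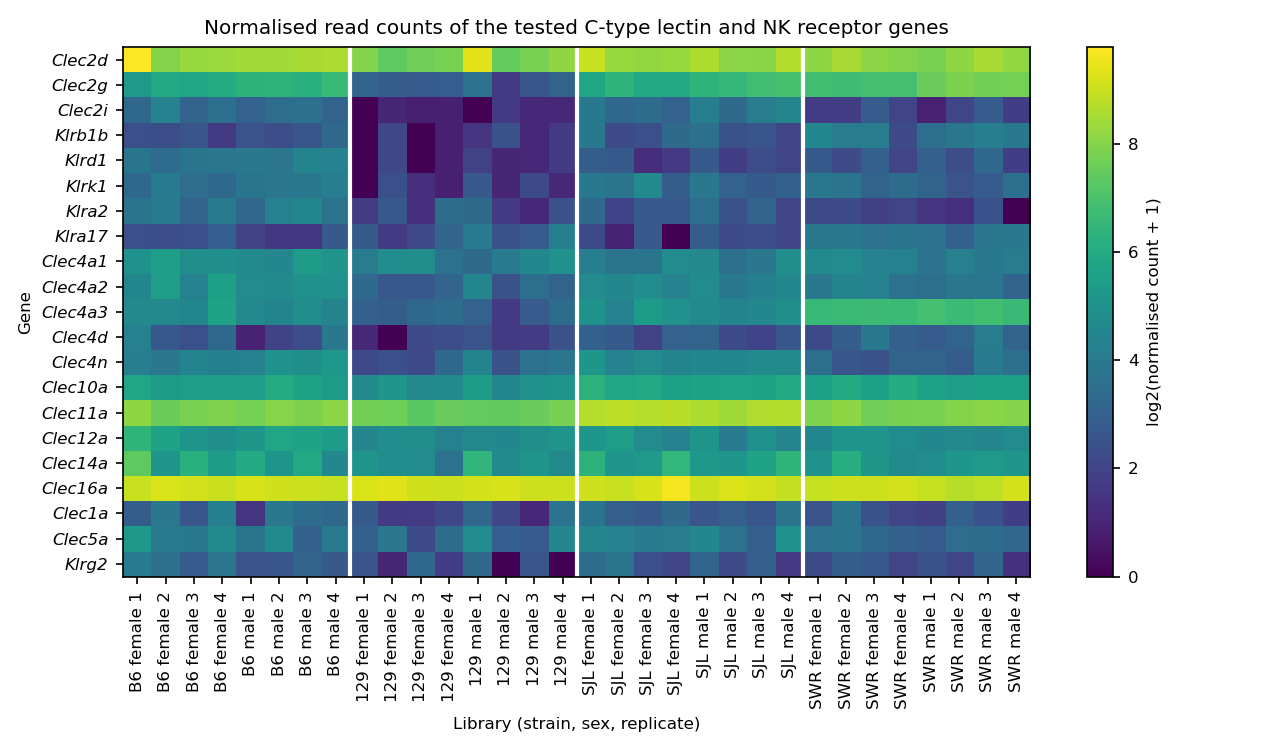
Normalised read counts of the 21 tested members on a log2 scale after adding 1, in columns of 32 libraries ordered by strain, sex and replicate. Clec16a and Clec2d were high in every library, Clec11a stood out in SJL and Clec4a3 in SWR, and Clec2i, Klrb1b, Klrd1 and Klrk1 were lowest in 129.

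Promoter sequences are shown for 5 members whose strain patterns are described below, so that genes of like and unlike pattern can be set side by side. RefSeq promoters on GRCm38.p6 were matched for 47 of the 56 members by symbol. Each line gives the 250 bases before the transcription start, 5′ to 3′. For Clec4a2 the start used lies inside the annotated gene, which begins at chr6:123106428. Capitals mark GAGGAA (the core of the binding motif of PU.1, a factor of myeloid cells) or TATAAA on either strand.
Clec2g, chr6:128934131-128934380, plus strand: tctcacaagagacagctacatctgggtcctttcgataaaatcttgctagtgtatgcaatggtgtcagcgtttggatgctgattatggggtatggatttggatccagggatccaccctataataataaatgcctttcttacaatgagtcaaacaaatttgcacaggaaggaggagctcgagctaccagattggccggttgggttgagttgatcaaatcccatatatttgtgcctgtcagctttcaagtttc
Clec4a3, chr6:122952265-122952514, plus strand: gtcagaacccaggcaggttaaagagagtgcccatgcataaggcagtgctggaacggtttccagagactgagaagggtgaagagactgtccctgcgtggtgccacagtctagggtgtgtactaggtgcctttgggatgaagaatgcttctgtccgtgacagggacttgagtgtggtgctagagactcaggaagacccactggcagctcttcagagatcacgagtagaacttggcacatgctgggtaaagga
Clec4a2, chr6:123122440-123122689, plus strand: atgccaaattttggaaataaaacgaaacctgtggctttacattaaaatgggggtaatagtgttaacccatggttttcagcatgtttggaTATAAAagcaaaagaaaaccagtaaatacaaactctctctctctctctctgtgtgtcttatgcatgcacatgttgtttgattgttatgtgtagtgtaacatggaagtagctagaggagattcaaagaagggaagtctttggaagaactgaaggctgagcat
Klra2, chr6:131247363-131247612, minus strand: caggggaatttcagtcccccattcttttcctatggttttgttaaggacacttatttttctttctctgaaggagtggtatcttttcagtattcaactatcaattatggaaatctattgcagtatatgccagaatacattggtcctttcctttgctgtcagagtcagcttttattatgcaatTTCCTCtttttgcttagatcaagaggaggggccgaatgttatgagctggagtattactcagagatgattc
Klra17, chr6:129876673-129876922, minus strand: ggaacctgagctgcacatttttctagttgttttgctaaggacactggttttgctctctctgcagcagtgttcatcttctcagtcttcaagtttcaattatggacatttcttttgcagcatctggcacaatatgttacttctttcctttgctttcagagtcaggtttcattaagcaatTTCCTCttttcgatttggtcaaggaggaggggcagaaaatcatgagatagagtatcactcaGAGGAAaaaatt

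The letters GAGGAA or their reverse complement stood in the 250 bases of 25 of the 47 member promoters (53.2%), against 23.1% of 27025 promoters of the table. TATAAA or its complement was found in 16 of 47 (34%), against 13% of all promoters. Among the 10 called members with a promoter, 5 held GAGGAA and 1, Clec4a2, held TATAAA. Klra2 and Klra17, which differ in opposite ways between strains, both held GAGGAA. Genes of 1 family share sequence, so these counts are not independent, and a match is a description of letters.

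Strains were compared with edgeR's quasi-likelihood test across 18382 genes, with sex in the model. A gene was called DE when the absolute log2 fold change (LFC) was above 1 and the false discovery rate (FDR, the Benjamini-Hochberg adjusted p) was under 0.05. Of the 21 tested members 12 were called in at least 1 of the 6 strain pairs, or 57.1%, against 19.8% of all genes tested. These 12 genes gave 44 calls, and in 23 of them (52.3%) the ranges of the strains compared did not overlap, against 58.4% of the calls of all genes. Chromosome 6 held 17 of the tested members and 11 of the called ones, and the single called member elsewhere was Clec11a. The fit was repeated with the background RPM or with the mean level of the macrophage markers as a further term, which left 35 and 16 of the 44 calls, and the calls lost are given beside each gene. A call could be lost through the limit on LFC or through the limit on FDR. The macrophage marker level differed between strains, so a lost call does not tell marker level and strain apart.

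Of the 44 calls 28 were against 129. B6 differed from 129 in 11 members against 11.1% of all genes; 10 were higher in B6 (8.72% of all genes) and 1 was lower (2.40%). SJL differed from 129 in 10 members against 8.38%, with 9 higher (5.61%) and 1 lower (2.76%). SWR differed from 129 in 7 members against 7.73%, with 7 higher (4.62%) and 0 lower (3.11%). The median LFC over the 21 tested members was 0.99, 0.86 and 0.36 in these 3 pairs, with medians over all genes of 0.02, -0.01 and -0.01.

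Among B6, SJL and SWR the directions were mixed. SJL against B6 gave 2 calls against 7.99%, with 0 higher in SJL (2.67%) and 2 lower (5.33%). SWR against B6 gave 9 calls against 8.05%, with 4 higher in SWR (2.52%) and 5 lower (5.53%). SWR against SJL gave 5 calls against 4.50%, with 2 higher in SWR (2.19%) and 3 lower (2.31%). The pairs share strains, so these counts are not independent. Over all 56 members, tested or not, the mean was lowest in 129 for 44 and highest in B6 for 34. Of these 56, 35 were too low to test, and the same share over all genes was not counted. The median background was also lowest in 129 and highest in B6, at 0.6 and 7.57 RPM. Its part in the order of the untested members was not tested. All libraries were aligned to a B6 genome, and the effect of strain variants on these orders was not measured either.

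**Figure D2:**
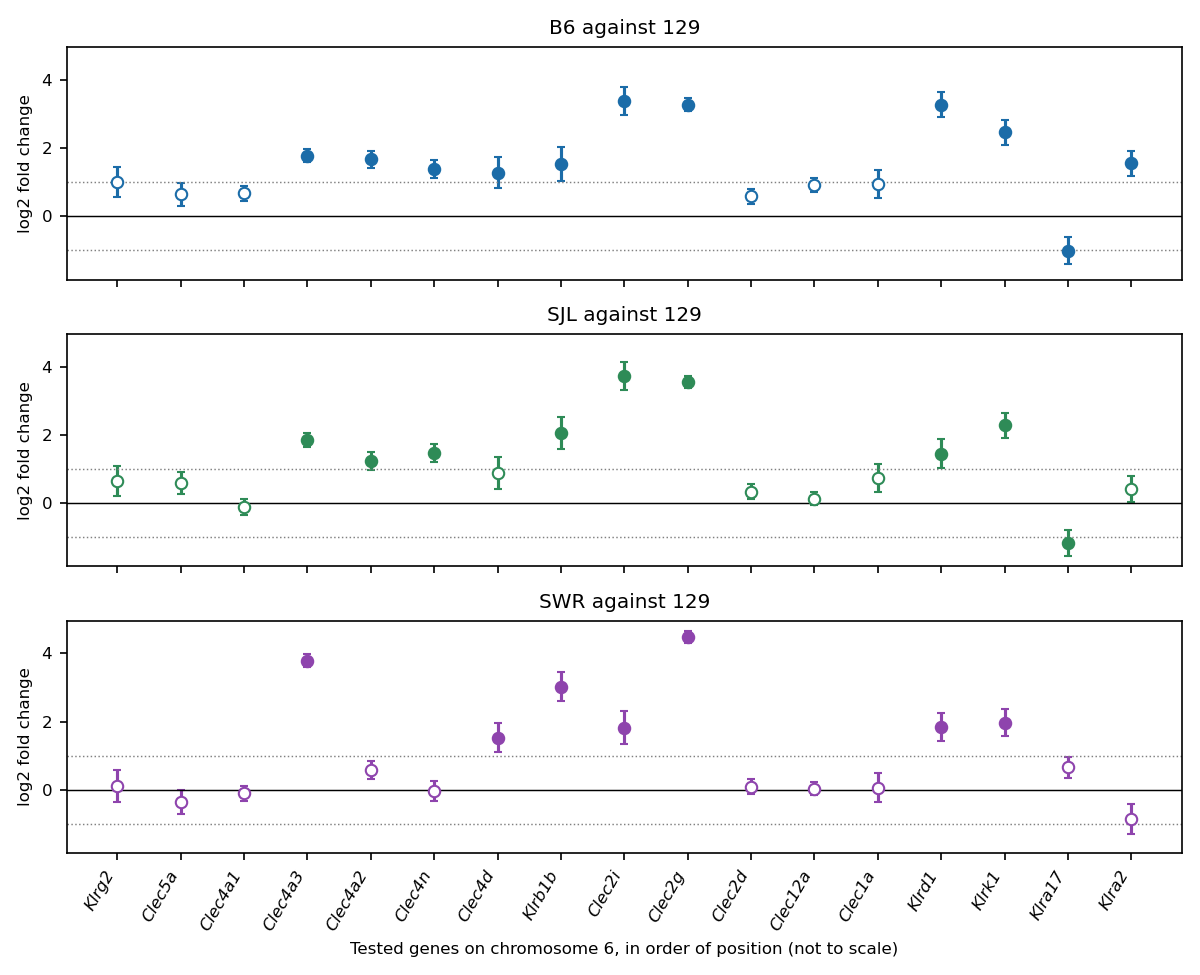
LFC with its standard error for the 17 tested members on chromosome 6 in order of position, for B6, SJL and SWR against 129; filled points were called and dotted lines mark an LFC of 1 and -1. Clec2i and Clec2g lay above 3 in B6 and SJL, and Clec2d, a close neighbour, lay below 1 in the 3 comparisons.

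The Clec2 family includes ligands of Klrb1 receptors, and 5 of its genes lie in the NK gene complex. Clec2g (chr6:128934381-128984707, plus strand) had the largest LFC of the 3 tested Clec2 genes. Its normalised read count ran from 2.19 through a median of 6.49 to 12.2 in 129, and from 37.3 through 69.4 to 97.3 in B6. It ran from 53.6 through 82 to 123 in SJL and from 108 through 151 to 230 in SWR. The 129 libraries lay below all others, and the SWR libraries lay above all B6 libraries. The LFC against 129 was 3.27 ± 0.18 (SE) in B6, 3.55 ± 0.18 in SJL and 4.48 ± 0.17 in SWR, with edgeR FDR of 1.20e-16, 7.01e-18 and 2.89e-21. SWR also exceeded B6 by an LFC of 1.21 ± 0.13, and its LFC of 0.93 ± 0.13 against SJL did not reach the fold limit.

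Clec2i (chr6:128887588-128898167, plus strand), of the same family, lies beside Clec2g. Its counts were 0 to 2.19 in 129 with a median of 0.945, on 7 reads in all, and 7.45 to 19.4 in B6 with a median of 9.35. In SJL they were 7.38 to 20.9 with a median of 12.2, and in SWR 0.886 to 6.29 with a median of 2.81. Thus B6 and SJL libraries all lay above the 129 and SWR libraries. The LFC against 129 was 3.37 ± 0.42 in B6 and 3.72 ± 0.40 in SJL, with edgeR FDR of 3.73e-08 and 2.27e-09. SWR was above 129 by 1.82 ± 0.48 with overlapping ranges, and below B6 by an LFC of -1.54 ± 0.33 and below SJL by -1.90 ± 0.31. With the macrophage term the calls of B6 and SWR against 129 and of SWR against B6 were lost. Their LFC of 3.45, 1.86 and -1.59 stayed past the fold limit, with edgeR FDR of 0.0686, 0.0535 and 0.158. The background term ended the call of SWR against 129 at 1.25 (FDR = 0.0858).

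Clec2d, which encodes a ligand of the inhibitory receptor Klrb1b, was the most abundant member and was called in none of the 6 pairs. Its means were 399 ± 200 (SD, n = 8) in B6, 341 ± 82.2 in SJL, 291 ± 48.9 in SWR and 271 ± 156 in 129. The largest LFC was 0.57 ± 0.23 for B6 against 129. The highest values of B6 and 129, 884 and 646, came from the 2 libraries with high Ltf, and without these libraries the means were 330 ± 43.2 and 218 ± 41.2 (SD, n = 7). Clec2e and Clec2h were too low to test, with means of at most 3.86 and 0.749 in any strain.

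The Klrb1 family encodes receptors of the Clec2 ligands, and of its 5 members Klrb1b was tested. Klrb1b (chr6:128813706-128826331, minus strand), an inhibitory receptor, had 0 to 4.37 normalised counts in 129 with a median of 1.53, and 2.19 to 8.58 in B6 with a median of 4.46. In SJL it had 3.13 to 14.5 with a median of 4.65, and in SWR 3.85 to 22.5 with a median of 15.4. The means fell in the order SWR, SJL, B6, 129, with overlapping ranges in every pair called. The LFC of SWR was 3.02 ± 0.43 against 129 (edgeR FDR = 6.29e-07) and 1.49 ± 0.36 against B6 (FDR = 0.00129). B6 and SJL exceeded 129 by 1.53 ± 0.50 and 2.04 ± 0.47. With the macrophage term these became -0.58 and 0.63, both not called, and SWR against B6 became 2.65, and the background term ended the call of B6 against 129 at 1.54 (edgeR FDR = 0.0843). In the annotation 20.8% of the read-length stretches of Klrb1b are shared with the overlapping gene Gm44511 on the same strand, and reads from these stretches do not count as unique.

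The remaining Klrb1 genes were below the filter. Klrb1f averaged 6.26 ± 4.34 in B6, 0.805 ± 0.762 in SJL, 2.8 ± 2.3 in SWR and 0.137 ± 0.386 in 129. Klrb1c, the gene of the NK1.1 antigen in B6, averaged 3.14 ± 1.85 in B6, 1.75 ± 1.49 in SJL, 0.269 ± 0.509 in SWR and 0.117 ± 0.331 in 129.

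**Figure D3:**
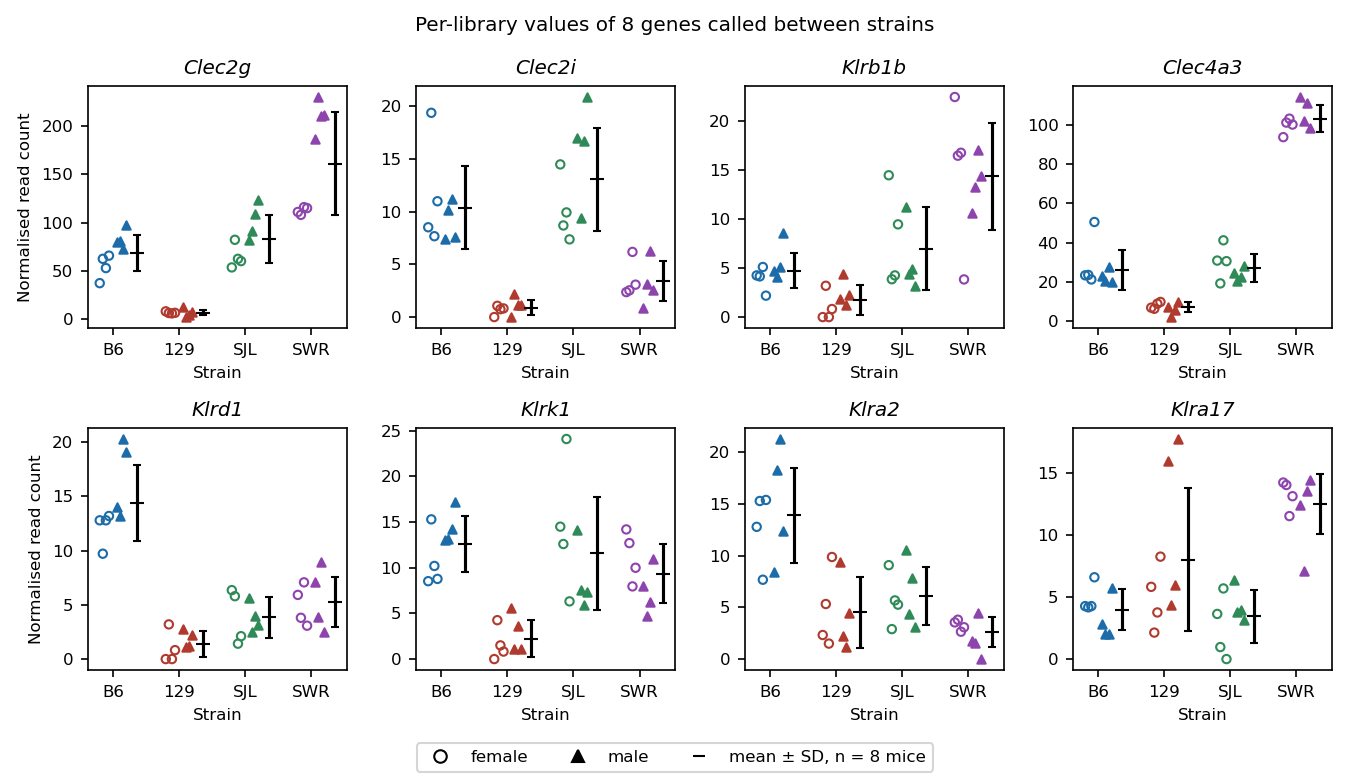
Normalised read counts per library of 8 called members in B6, 129, SJL and SWR, with open circles for females, triangles for males and the mean ± SD of 8 mice per strain as bars. Clec2g ran from 108 to 230 in SWR and from 2.19 to 12.2 in 129, Clec4a3 stood at 93.6 to 114 in SWR, and Klrd1 was highest in B6.

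The 9 genes of the Clec4 cluster include receptors of myeloid cells, and 5 were tested and 4 called. Clec4a3 set SWR apart from the other 3 strains. Clec4a3 (chr6:122952515-122969875, plus strand), a DCIR-like receptor, had 93.6 to 114 normalised counts in SWR with a median of 102. It had 20 to 50.5 in B6 with a median of 23.4, 19.3 to 41.2 in SJL with a median of 26.5, and 2.19 to 9.96 in 129 with a median of 7.23. The SWR libraries lay above all others, the 129 libraries below all others, and B6 and SJL overlapped. The LFC of SWR was 3.79 ± 0.19 against 129, 2.02 ± 0.16 against B6 and 1.94 ± 0.16 against SJL, with edgeR FDR of 3.02e-18, 1.32e-12 and 3.81e-12. B6 and SJL exceeded 129 by 1.77 ± 0.20 and 1.85 ± 0.20, and with the macrophage term the call of B6 was lost at 0.89.

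Other genes of the cluster followed a different order. Clec4a2, the inhibitory receptor DCIR, had medians of 27.3 in B6, 22.1 in SJL, 13.4 in SWR and 7.99 in 129. Its LFC against 129 was 1.66 ± 0.26 in B6 and 1.23 ± 0.26 in SJL, and SWR lay below B6 by an LFC of -1.09 ± 0.24. These ranges overlapped, and 129 male 1 reached 21.5 while the other 129 libraries ended at 10.7. The call of SWR against B6 was lost without B6 female 2, B6 female 4 or SWR male 4, at LFC of -1.0, -1.0 and -0.99. The 3 calls were also lost with the background term, at 0.74, 0.47 and -0.81, and with the macrophage term, at -0.13, 0.05 and -0.09.

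Clec4n, which encodes Dectin-2, a receptor of fungal mannans, had medians of 19.6 in B6, 23.3 in SJL, 7.84 in SWR and 6.72 in 129. The LFC against 129 was 1.38 ± 0.27 in B6 and 1.47 ± 0.26 in SJL. SWR lay below B6 by -1.42 ± 0.27 and below SJL by -1.52 ± 0.26, the latter with ranges that did not overlap. SWR against 129 had an LFC of -0.05 ± 0.29 and was not called. With the macrophage term the 4 calls were lost, at -1.0 and -0.10 for B6 and SJL against 129 and at -0.07 and -0.97 for SWR against B6 and SJL.

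Clec4d, a receptor of myeloid cells that binds mycobacterial glycolipid, was higher than in 129 by 1.27 ± 0.46 in B6 (edgeR FDR = 0.0211) and 1.53 ± 0.44 in SWR (FDR = 0.00549), with overlapping ranges. The call of B6 was lost without B6 female 1 or B6 male 4, where it reached 18.1 and 14.3, at LFC of 0.90 and 1.01. It was also lost with the background term at 1.58 (FDR = 0.0503), and the macrophage term ended both calls at -0.57 in B6 and 0.74 in SWR. Clec4a1 was called in no pair, with means of 31.5 ± 7.51 in B6, 18.1 ± 6.6 in SJL, 18.7 ± 4.55 in SWR and 19.9 ± 7.83 in 129. Clec4e, the receptor Mincle, was below the filter, with means of 7.31 in B6, 4.91 in SWR, 3.81 in SJL and 1.36 in 129.

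Next come the Klrc, Klrd, Klre, Klrg, Klri and Klrk genes, 10 members of which 3 were tested and 2 called. Klrd1 (chr6:129591782-129598775, plus strand), which encodes CD94, the partner of the Klrc (NKG2) receptors, had 9.72 to 20.3 normalised counts in B6 with a median of 13.2. It had 0 to 3.2 in 129 with a median of 1.14, 1.42 to 6.36 in SJL with a median of 3.54 and 2.54 to 8.99 in SWR with a median of 4.92. Every B6 library lay above every library of the other strains. The LFC of B6 against 129 was 3.27 ± 0.37 (edgeR FDR = 5.57e-09), with 11 reads in all behind the 129 value. SJL and SWR lay below B6 by LFC of -1.84 ± 0.31 and -1.44 ± 0.30, and above 129 by 1.44 ± 0.43 and 1.84 ± 0.42. All 5 calls were lost with the macrophage term. The LFC were 1.11 (edgeR FDR = 0.569), 0.02 and 0.89 for B6, SJL and SWR against 129. They were -1.09 (FDR = 0.0593) and -0.22 for SJL and SWR against B6. The background term ended the call of SJL against 129 at 1.32 (FDR = 0.0650).

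Klrk1 (chr6:129610323-129623864, minus strand), the activating receptor NKG2D, had medians of 13.1 in B6, 10 in SJL, 9 in SWR and 1.3 in 129. B6 libraries ran from 8.53 to 17.2 and SJL libraries from 5.91 to 24.1, both above the 129 libraries, which ended at 5.62. SWR libraries started at 4.71 and overlapped 129. The LFC against 129 was 2.45 ± 0.38 in B6, 2.27 ± 0.38 in SJL and 1.97 ± 0.39 in SWR, with edgeR FDR of 2.28e-06, 1.16e-05 and 0.000114. Klrk1 was not called between B6, SJL and SWR. The 3 calls were lost with the macrophage term, at 0.88, 1.22 and 1.25 (edgeR FDR = 0.676, 0.360 and 0.123).

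The other genes of this group were below the filter, apart from Klrg2. Klri1 averaged 7.51 ± 2.23 in B6, 3.24 ± 1.39 in SJL, 0.66 ± 0.892 in SWR and 0.277 ± 0.783 in 129. Klri2 had no read in 129 and averaged 3.22 ± 1.66 in B6. Klrc1, the inhibitory partner of Klrd1, had no read in 129 and averaged 1.66 ± 1.17 in B6. Klrg2, which was tested, was called in no pair, with means of 8.59 in B6 and 3.91 in 129.

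Among the 11 Klra genes 2 were tested and both were called, in opposite directions. Klra2 (chr6:131219223-131247362, minus strand), Ly49b, had 7.68 to 21.3 normalised counts in B6 with a median of 14, and 0 to 4.5 in SWR with a median of 2.87. It had 2.9 to 10.6 in SJL and 1.19 to 9.88 in 129. B6 and SWR did not overlap, and their LFC was -2.39 ± 0.40 for SWR against B6 (edgeR FDR = 9.11e-06). B6 exceeded 129 by 1.54 ± 0.37, and SJL lay below B6 by -1.14 ± 0.35. SWR lay below SJL by -1.26 ± 0.43, and this call was lost without SJL female 1, SJL male 1, SWR male 2 or SWR male 4, at LFC of -1.15, -1.07, -1.16 and -1.05. The background term ended the calls of B6 against 129 at 0.55 and of SJL against B6 at -1.0. The macrophage term ended all 4. The LFC were -0.39 for B6 against 129, -0.47 and -1.32 (edgeR FDR = 0.236) for SJL and SWR against B6 and -0.85 for SWR against SJL.

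Klra17 (chr6:129831154-129876672, minus strand) went the other way between SWR and B6. This gene, Ly49q, is known from plasmacytoid dendritic cells. It had 7.06 to 14.4 normalised counts in SWR with a median of 13.3, and 2.03 to 6.58 in B6 with a median of 4.21, with no overlap. SJL ran from 0 to 6.36, and 129 from 2.13 to 17.7, where 129 male 1 and 129 male 4 reached 15.9 and 17.7. SWR exceeded B6 by an LFC of 1.67 ± 0.37 and SJL by 1.82 ± 0.36. B6 and SJL lay below 129 by -1.02 ± 0.39 (edgeR FDR = 0.0278) and -1.18 ± 0.38 (FDR = 0.0145), and both calls were lost without 129 male 1, where the LFC were -0.82 and -0.96. Without 129 male 4 they were -0.79 and -0.94. The call of B6 against 129 was also lost without 129 female 4, B6 male 1, B6 male 2 or B6 male 3, at LFC between -0.98 and -0.90. The macrophage term moved B6 and SJL against 129 to -3.69 and -2.89 and SWR against B6 to 3.18, and the background term moved B6 against 129 to -1.55, all still called.

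The other 9 Klra genes, which include activating and inhibitory Ly49 receptors, were at or near the limit of detection, and 6 of the 11 had no read in 129. Their summed count ranged from 3.05 to 26.3 in B6, from 1.88 to 17 in SJL, from 0.846 to 22.8 in SWR and from 0 to 3.74 in 129. The background reads moved with these sums: the 2 B6 libraries with the highest summed count, 26.3 and 23.6, had 31.7 and 32.2 background RPM. Its part in the result was not tested. Reads were aligned to a B6 genome, and the effect of strain differences in gene number or sequence on these counts was not measured.

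The Clec1, Clec9a and Clec12 genes, receptors of myeloid cells, dendritic cells and platelets, held 5 members and 0 calls. Clec12a averaged 46.8 ± 17.4 in B6, 27.6 ± 9.34 in SJL, 26 ± 5.23 in SWR and 25.3 ± 4.22 in 129, and the LFC of B6 against 129 was 0.90 ± 0.20. Clec12b had 39 reads in SJL, 4 in B6, 6 in SWR and 0 in 129, and its SJL mean was at least 1.61-fold higher than the floor of 3 reads per library in 129. Clec9a, a marker of cross-presenting dendritic cells, averaged 8.17 ± 3.55 in B6 and 1.88 ± 1 in 129 and was below the filter.

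Clec11a (chr7:44302687-44306902, minus strand), a growth factor of bone marrow and bone, was the single called member off chromosome 6. It had 337 to 453 normalised counts in SJL with a median of 405, and 155 to 221 in 129 with a median of 188. B6 ran from 190 to 278 and SWR from 204 to 279. The SJL libraries lay above all others, and the LFC against 129 was 1.10 ± 0.08 (edgeR FDR = 6.99e-14). SJL also exceeded B6 by 0.75 ± 0.08 and SWR lay below SJL by -0.74 ± 0.08, under the fold limit. Of 5 markers of cartilage and bone 2 were called. These were the cartilage genes Acan and Col2a1, higher in SJL than in 129 by 2.13 ± 0.26 and 1.04 ± 0.22. The bone genes Ibsp, Bglap and Sp7 were called in no pair. They averaged 155, 24.4 and 25.8 in SJL and 139, 12.6 and 23.9 in 129. The part of these markers in the Clec11a result was not tested. With the macrophage term the call was lost at 0.84.

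Clec16a, an endosomal protein unrelated to the NK receptors, and Clec10a and Clec14a, receptors of macrophages and of endothelium, were called in no pair. Clec16a averaged 540 ± 37.3 in B6, 576 ± 105 in SJL, 505 ± 45.5 in SWR and 563 ± 40.8 in 129. Clec10a averaged 46.9 ± 8.58 in B6, 55.9 ± 9.84 in SJL, 50.2 ± 8.79 in SWR and 28.8 ± 6.91 in 129, and its LFC of SJL against 129 was 0.95 ± 0.14. Clec3b, tetranectin, was the single member highest in 129, with 8.15 ± 4.88 there and 1.02 ± 0.502 in SWR, and was below the filter.

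Between the sexes 0 of 21 members were called at an absolute LFC above 1 and FDR under 0.01, where 7 genes of all those tested were called (0.0381%). An unadjusted p under 0.05 was found for 2 members, against 8.97% of all genes, and these were Clec2g and Clec4n. The interaction of sex and strain gave 0 calls among the members (0.0163% of all genes) and 0 at an unadjusted p under 0.05 (8.94%).

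Clec2g was higher in males, with an LFC of 0.68 ± 0.10 and an edgeR FDR of 0.000120. At FDR under 0.05 without a limit on LFC, a rule chosen after the values were seen, it was the single member among 52 genes (0.283%). In SWR the females had 111, 108, 116 and 115 normalised counts and the males 187, 230, 210 and 211. In B6 the females had 37.3, 62.5, 52.9 and 65.8 and the males 80.1, 81.3, 73 and 97.3. The sexes did not overlap in these strains. In SJL the females had 53.6, 82.2, 62.5 and 60.1 and the males 81.9, 91.3, 109 and 123, and in 129 the females had 8.14, 6.4, 6 and 6.59 and the males 12.2, 2.19, 4.77 and 7.75. The SJL sexes met at 1 pair of values, and in 129 the male values enclosed the female ones.

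Within strains the male-minus-female difference of Clec2g in log2(count + 1) was 0.89 in SWR, 0.62 in B6, 0.64 in SJL and -0.19 in 129. A two-sided exact permutation test gave p = 0.0286 in SWR and B6, the smallest that 4 against 4 can give, 0.0571 in SJL and 0.686 in 129. Adjusted over the 4 strains the exact p-values were 0.0571, 0.0571, 0.0762 and 0.686. The test of the interaction of sex and strain for Clec2g had an FDR of 0.703, so a difference between strains in the sex effect was not shown. Clec4n was higher in males by 0.52 ± 0.19 with an edgeR FDR of 0.346, which did not pass.

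The adaptor and signalling genes that these receptors use were mostly below the fold limit, with 22 of 25 tested and 7 called in at least 1 pair. Tyrobp (DAP12), the adaptor of activating NK and myeloid receptors, averaged 128 ± 26.3 in B6, 79.8 ± 6.91 in SJL, 87.7 ± 10.4 in SWR and 56.7 ± 19.9 in 129, and B6 exceeded 129 by 1.17 ± 0.15. Fcer1g, the adaptor of Dectin-2 and Mincle, was higher in B6 than in 129 by 1.26 ± 0.17. Btk, Inpp5d and Vav1 were also higher in B6, and Card9, which acts downstream of Dectin-2, was higher in SWR than in 129 by 1.06 ± 0.20. The median LFC of the list was 0.23 in B6, 0.27 in SJL and 0.08 in SWR against 129, and 0 genes were called lower. Ptpn11, a phosphatase, lay below 129 by less than the fold limit, at -0.32 ± 0.05 in B6 (edgeR FDR = 2.11e-06).

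Ligands of NK receptors differed in both directions, with 12 of the 17 found genes tested and 6 called. H2-T23, which encodes Qa-1, the class I molecule that presents to CD94 receptors, averaged 529 ± 133 in B6, 120 ± 11.9 in SJL, 107 ± 17.6 in SWR and 171 ± 64.8 in 129. B6 exceeded 129 by 1.62 ± 0.15, and SJL and SWR lay below B6 by LFC of -2.14 ± 0.15 and -2.33 ± 0.15. H2-D1, a class I molecule read by Ly49 receptors, averaged 2385 ± 255 in SWR, 1690 ± 297 in B6, 1098 ± 99.3 in 129 and 530 ± 82.2 in SJL. Raet1e, a ligand of NKG2D, averaged 8.93 ± 5.73 in B6, 5.94 ± 3.21 in SWR, 1.51 ± 1.12 in SJL and 0.117 ± 0.331 in 129. Pdpn, the ligand of Clec1b, was higher in B6 than in 129 by 1.25 ± 0.13. Cdh1 and H2-Q10 were called in at least 1 pair too. All libraries were aligned to GRCm38, which is a B6 genome. The effect of strain variants in such genes, or in the members themselves, on alignment was not measured here.

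Markers of NK and T cells were low. Nkg7 and Prf1 averaged under 1 normalised count over the libraries, Ncr1 reached 4.21 ± 2.89 in B6 and 0.211 ± 0.393 in 129, and 2 of the 12 NK and T cell markers were tested. Eomes, a factor of NK cells and of other cells, was one of them and was called in no pair, with means of 9.53 ± 3.91 in B6, 9.1 ± 2.89 in SJL, 5.57 ± 3.43 in SWR and 8.65 ± 3.69 in 129. Gzma, a granzyme, averaged 5.85 ± 9.44 in B6, 4.03 ± 1.61 in SJL, 6.85 ± 2.25 in SWR and 1.7 ± 3.2 in 129. Cd4, a coreceptor of T cells that some myeloid cells also carry, was the single called gene of the list and was higher than in 129 by 2.0 ± 0.22 in B6, 1.87 ± 0.22 in SJL and 1.73 ± 0.22 in SWR. Summed over the 12 genes the level was 14 to 37.4 in 129 and 33 to 108 in the other strains.

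The summed macrophage markers were higher in B6 than in 129, as were 10 of the 11 members called between these strains. Their medians fell in the order B6, SJL, SWR, 129, which not all called members followed. Clec2g, Clec4a3, Klrb1b, Clec4d and Klra17 had their highest mean in SWR, and Clec2i, Clec4n and Clec11a in SJL. Of 12 macrophage markers 9 were called higher in B6 than in 129, 5 in SJL and 2 in SWR, with median LFC over the list of 1.56, 0.94 and 0.70. Of 8 dendritic cell markers 6 were tested and 5 called, and Cd209a was higher than in 129 by 3.77 ± 0.29 in B6, 3.67 ± 0.29 in SJL and 3.48 ± 0.29 in SWR. Others differed in the opposite direction, since Batf3 was lower in B6 than in 129 by an LFC of -2.42 ± 0.12. The summed dendritic cell markers ran from 814 to 962 in B6, 899 to 1152 in 129, 1034 to 1151 in SJL and 1259 to 1411 in SWR. Zbtb46 was the largest part of each sum, with means of 646 in B6 and 780 in 129. Of the smaller markers, Flt3 and Itgax averaged 21.6 and 52.5 in B6, 18.4 and 42.9 in SWR, and 8.53 and 20.3 in 129. Between B6 and 129, 3 markers of this list were called higher in B6 and 1 lower. The macrophage term left the calls of Clec2g against 129 and those of Clec4a3 for SWR and ended every call of Klrd1 and Klrk1. The marker level and the strain 129 cannot be told apart, since the 129 libraries had the lowest sums of all.

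Single libraries of low background were looked at next. SWR male 4 had 0.521 background RPM, within the range of 129, and its counts were 211 for Clec2g, 98.1 for Clec4a3, 14.4 for Klrb1b and 11 for Klrk1. B6 female 1 had 1.09, where 129 male 1 had 1.74 and the other 129 libraries ended at 0.995, and its counts were 37.3 for Clec2g, 8.53 for Clec2i, 12.8 for Klrd1 and 8.53 for Klrk1. These values lay above every 129 library. Of the 7 members called higher in SWR than in 129, 6 lay above every 129 library in SWR male 4, and Klrd1 at 2.54 did not. Of the 10 called higher in B6, 7 did so in B6 female 1, and Clec4a2, Clec4n and Klrb1b at 21.3, 17.1 and 4.26 did not. Both libraries were in the fits that called these members, so the counts are no separate test of the background. The same share over all called genes was not counted. B6 female 1 also had the highest Ltf. The macrophage marker sums were 2447 in B6 female 1 and 1269 in SWR male 4, above every 129 library. The number of members with at least 1 read rose with the background, from 26 to 36 in 129 to between 38 and 53 in B6.

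**Figure D4:**
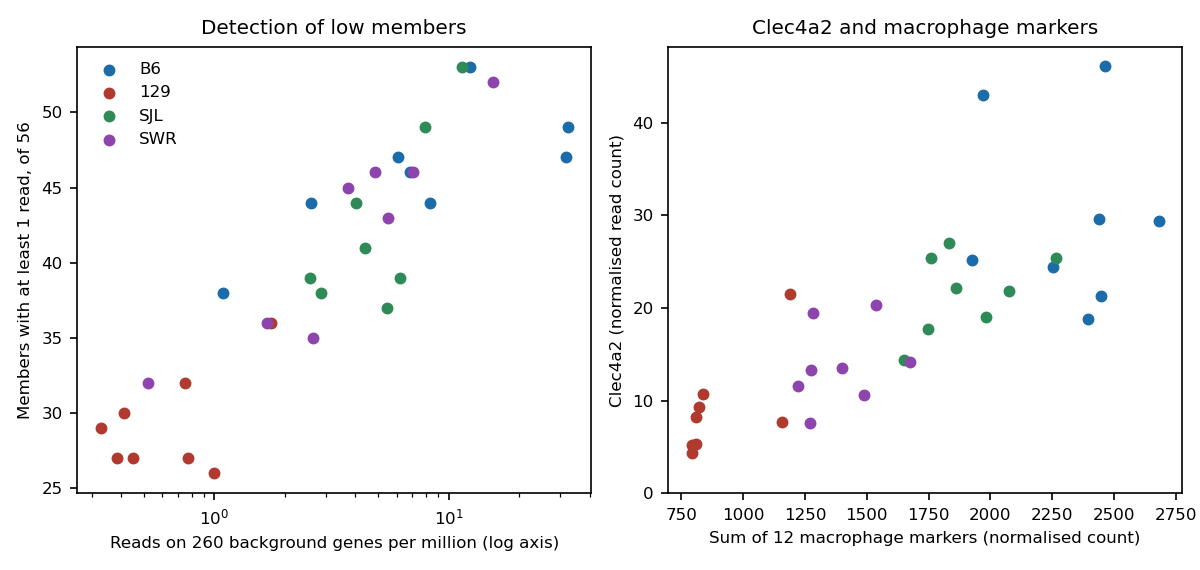
Left, the number of the 56 members with at least 1 read in each library against background RPM on a log axis; right, the normalised count of Clec4a2 against the sum of 12 macrophage markers, with 1 point per library coloured by strain. The 129 libraries lie mostly at the lower left of both panels, with 26 to 36 members and marker sums of 792 to 1188, and the B6 libraries reach 53 members and sums of 2680.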

How the data were processed

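RNA of 32 VNO neuroepithelia was ribo-depleted and sequenced as stranded paired reads. The authors trimmed reads with Trim Galore, aligned them with STAR to GRCm38 with Ensembl annotation, and counted uniquely mapped reads on the sense strand. The deposited tables hold raw counts and, as a signal scale, counts that the authors divided by DESeq2 size factors, printed here as normalised read counts. Raw counts were filtered (filterByExpr over 8 groups), scaled by TMM and tested in edgeR 4.0.16 with sex and strain as terms, over all 32 libraries. Separate tests took the sexes and the interaction. Depth of 5106398 to 18640871 reads leaves most members with few reads. TPM used GENCODE M21 exon lengths on GRCm38. Named members were those called in a pair or among the 10 highest TPM; list genes were named if called, at most 6 per list by absolute LFC, with uncalled markers added after their values were seen. The members and lists were chosen with earlier results of these data known. Scripts were tested on simulated data. DESeq2 1.42.0, other scalings, no filter, added terms and left-out libraries were the alternatives. The exact permutation tests used scipy 1.17.1. Promoters came from RefSeq tables; protein sequences were not analysed here. A called gene of the signalling list is not reported here.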

Additional observations from a re-analysis of the deposited data

Results flagged for a closer look

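In 14 of the 68 combinations of 17 named members and 4 strains, 1 library lay far from the other 7 of its strain by Dixon's criterion. For independent, normally distributed values chance would flag about 1 in 20 groups. The counts were not transformed and the groups share libraries, so the rate expected here is not known. The libraries B6 female 1 and 129 male 1, which also had the highest Ltf, gave 5 of the 14. Clec2d reached 884 normalised counts in B6 female 1, with the next B6 library at 381, and 646 in 129 male 1, with the next at 285. Clec14a reached 163 in B6 female 1 against 73.4 in the next library, and 86.1 in 129 male 1 against 32.6. Clec4a2 reached 21.5 in 129 male 1 against 10.7. Clec14a was also high in SWR female 2, at 67.2 against 38.7.

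SJL females stood out for other members. SJL female 1 had 77.2 for Clec10a against 59.6 in the next library, and 34.5 for Clec4n against 25.6. Clec16a reached 810 in SJL female 4 against 619, and Klrk1 reached 24.1 in SJL female 3 against 14.5. In B6, Clec2i reached 19.4 in female 2 against 11.2, Clec4a3 reached 50.5 in female 4 against 27.4, and Klrb1b reached 8.58 in male 4 against 5.12. Klra17 in SWR male 2 was the single low value, at 7.06 against 11.5 in the next library.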

How the results depend on the processing

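Of the 44 calls between strains, 0 were lost with DESeq2 size factors, with the DESeq2 test or without the filter on low counts. With FDR under 0.01, 5 were lost, 9 with the background term, 28 with the macrophage marker term and 3 without both B6 female 1 and 129 male 1. Leaving out each library in turn lost 5 of them in at least 1 fit, and 0 reversed. The DESeq2 test, which gave an FDR for 51 members, called 25, 20, 14, 7, 16 and 10 members in B6 against 129, SJL against 129, SWR against 129, SJL against B6, SWR against B6 and SWR against SJL, and 34 in at least 1 pair. Without the filter, with all 56 members tested, the counts were 32, 21, 20, 7, 16 and 10, and 38 in at least 1 pair. The background term left 1 call in SJL against B6. The macrophage marker term left 2 in B6 against 129, 4 in SJL against 129, 0 in SJL against B6 and 4 in SWR against B6, and 12 of the other listed genes in at least 1 pair. It reversed Clec4n (-1.0), Clec4d (-0.57), Clec4a2 (-0.13), Klra2 (-0.39) and Klrb1b (-0.58) in B6 against 129, and Clec4n (-0.10) in SJL against 129; the cause was not tested, and none of the reversed values was called.

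With 1 library left out the counts ranged from 11 to 15, 10 to 13, 8 to 9, 2 to 2, 9 to 12 and 5 to 7 in the same order of pairs, and from 14 to 17 in at least 1 pair. For the other listed genes they ranged from 28 to 31, and for sexes and interaction they stayed at 0. A smaller group lets more members past the filter, and 22 to 24 were tested. The LFC of Clec2g between the sexes stayed between 0.65 and 0.72 in every alternative, with FDR under 0.05. The replicate number, which is the leading number of the descriptions in the labels, was added as a replicate block: 13 members were called in at least 1 pair, 11 in B6 against 129, and Klra17 in B6 against 129 was lost at -0.98. Libraries of 1 number did not deviate together (median correlation -0.01 over 112 pairs, against 0.01 for other numbers), and 5 of 32 libraries correlated best with their own number. Members with few reads were not detectable as different at this depth, which does not show that they are alike.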

Other observations

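Clec7a and Clec2f, which carry a pseudogene type in the annotation and so were no members, were chosen here after their values were seen. Clec7a, the gene of Dectin-1, averaged 37.5 ± 15.9 normalised counts (SD, n = 8) in B6, 17.3 ± 5.72 in SJL, 24.8 ± 4.11 in SWR and 13.8 ± 8.31 in 129. Clec2f, a neighbour of Clec2g in the same family, averaged 15.4 ± 7.55 in B6, 2.28 ± 1.36 in SJL, 2.82 ± 2.57 in SWR and 1.64 ± 1.86 in 129.

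Some immune genes outside the family had strain patterns of their own. Batf3, a factor of dendritic cells, was lower in B6 than in 129 by an LFC of -2.42 ± 0.12 and higher than B6 in SJL and SWR by 1.53 ± 0.12 and 2.06 ± 0.12. H2-DMb2, which edits the peptides of MHC class II, was higher than in 129 by 2.68 ± 0.09 in SWR and 1.63 ± 0.09 in SJL. Pf4, a platelet gene also read in macrophages, was higher than in 129 by 1.86 ± 0.28 in B6 and 1.75 ± 0.27 in SJL.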
